A study of Mus musculus with 6 samples.

Results

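The 98 genes described here encode the subunits of the oxidative phosphorylation system. They are the protein-coding genes of the deposited table whose symbols name a subunit of complexes I to V, namely the Ndufa, Ndufb, Ndufc, Ndufs and Ndufv genes, Sdha to Sdhd, the Uqcr genes and Cyc1, Cox4 to Cox8, the Atp5 genes and the mitochondrial Nd, Co, Cytb and Atp genes. They were taken by name and not by their values, from 17924 genes in all. Of the 98, 85 are encoded in the nucleus and 13 in mitochondrial DNA. Complex I holds 36 nuclear and 7 mitochondrial genes, complex II 4 nuclear genes, complex III 9 and 1, complex IV 19 and 3, and complex V 17 and 2. Ndufa4 and Ndufa4l2 carry a complex I name but were counted with complex IV, where the Ndufa4 protein is found. Cox5b-ps and Ndufb1-ps were kept because the table lists them as protein coding, whereas 12 other genes with such symbols are listed as pseudogenes and were left out.

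The study asked what the loss of Nelfb, a subunit of the negative elongation factor that holds RNA polymerase II near promoters, does to adipocyte differentiation. Fibroblasts were isolated from the dorsal dermis of newborn (P0) C57BL/6J mice and cultured for 14 days in adipocyte differentiation medium, and RNA was sequenced from 3 CTL and 3 Nelfb-/- cultures, described as biological replicates. The Nelfb-/- cells were Nelfb fl/fl Pdgfra-Cre+, and the CTL cells, also Pdgfra-Cre+, were either Nelfb fl/wt or Nelfb wt/wt, so that both groups carried the Cre. Which of the CTL genotypes each CTL library had is not given in the sources used here. The Cre is driven by Pdgfra, a gene of fibroblasts and preadipocytes, so cells of lineages that never expressed it would keep Nelfb.

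Oxidative phosphorylation takes electrons from nutrients through complexes I and II to ubiquinone, complex III, cytochrome c and complex IV, where oxygen is reduced, and complexes I, III and IV pump protons across the inner mitochondrial membrane. Complex V, the ATP synthase, lets the protons back and makes ATP. Most subunits are made from nuclear genes and imported, while a small core of every complex but complex II is transcribed inside the mitochondrion from its own circular DNA by a separate polymerase. Mitochondria become more abundant as preadipocytes turn into adipocytes, and brown and beige adipocytes are especially rich in them.

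Levels are given in CPM, that is, reads per 1e+06 reads that a library had on the listed genes, of which there were 17.2 M to 29.4 M (M, 1e+06). Nelfb was at 17.3, 19.6 and 22.3 CPM in the CTL libraries, against 5.50, 3.90 and 5.55 CPM in the Nelfb-/- libraries, and changed by -1.99 on the log2 scale (SE 0.22, adjusted p = 0.0050 by limma). A gene was called when its limma p, adjusted after Benjamini and Hochberg over the 16252 genes tested, was at most 0.05 and its change at least 2-fold. Log2 fold changes are of Nelfb-/- relative to CTL on a scale of log2 of the reads at a common depth plus 1. The median over all genes tested was 0.07. CTL replicate 3 and Nelfb-/- replicate 1 stood apart from the other libraries of their groups on the second principal component, which held 27.7% of the variance, and the numbers of called subunits, the medians of the complexes and some single values are also given without them. The p-values measure the spread between these cultures, and bulk RNA cannot tell fewer cells of a type from less RNA per cell.

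All 98 subunit genes were tested, and all 98 had a negative log2 fold change, where 45.4% of all genes tested had one. The median was -0.80, and the median level in Nelfb-/- libraries was 57.7% of the CTL mean. Of the 98, 18 were called lower and 0 higher (limma), and at an unadjusted p under 0.05 there were 70 lower and 0 higher, against 12.9% lower and 19.6% higher of all genes tested. Among all genes tested, 3.64% were called lower and 7.58% higher. At an adjusted p of at most 0.05 without the limit on fold there were 37, all lower, against a background of 5.83% lower and 9.96% higher. In 75 of the 98 genes every Nelfb-/- library was below every CTL library, which held for 16.1% of all genes tested, and in 0 was it the reverse (22% of all genes). The genes share libraries and are not independent of each other.

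**Figure D1:**
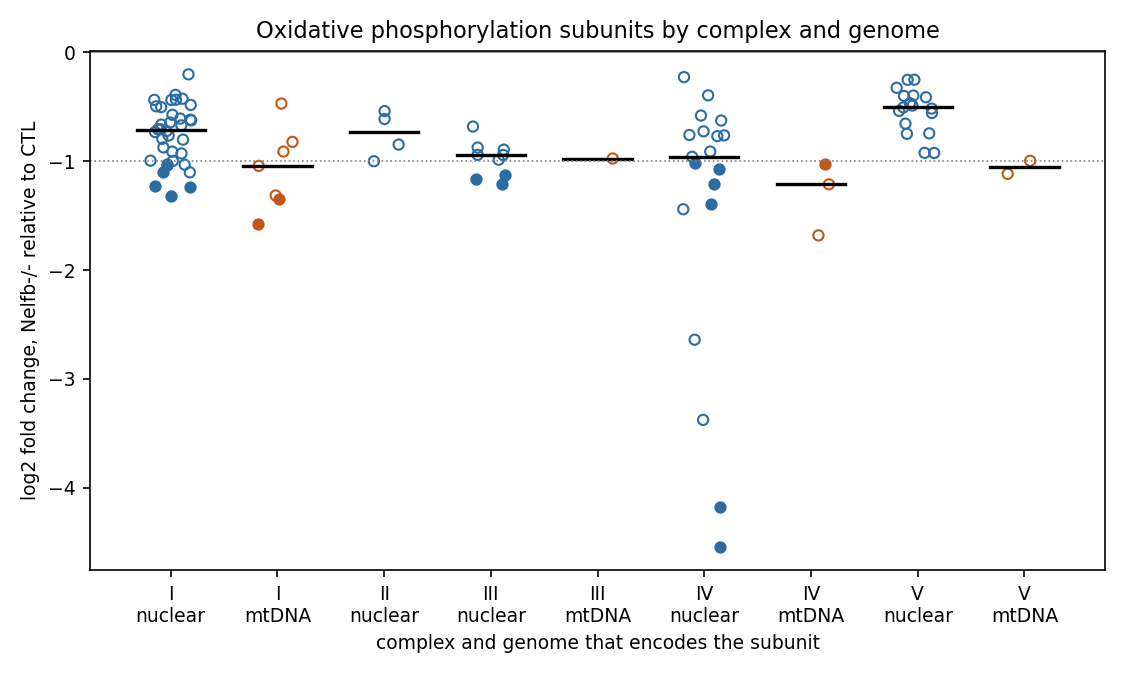
Log2 fold change of Nelfb-/- relative to CTL for each of the 98 subunit genes, by complex (I to V) and by the genome that encodes the subunit (blue nuclear, orange mitochondrial DNA). Each point is a gene, filled points were called (adjusted p at most 0.05 and at least 2-fold), bars are medians and the dotted line marks a 2-fold decrease. All points lie below 0, the median of the nuclear genes of complex V lies closest to it, and the lowest points are nuclear genes of complex IV.

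The number of calls depended on single libraries. Without Nelfb-/- replicate 3 it was 4 of 98, without CTL replicate 1 it was 7, without CTL replicate 2 it was 10, and without Nelfb-/- replicate 1 it was 11, while it was 17 without CTL replicate 3 and 17 without Nelfb-/- replicate 2. The sign was steadier, since 98 genes were negative in each of the 4 fits that kept both libraries that stood apart, 97 without CTL replicate 3 and 96 without Nelfb-/- replicate 1. Cox8b, Ndufa6 and Uqcrh were called in all 6 of these fits. Uqcr11 and Cox7b were called in none of them, and the other 13 called genes in 1 to 5. Of the 18, 9 share bases with another annotated gene, namely mt-Nd5, mt-Nd6, mt-Co3, Ndufb9, Ndufs3, Ndufa2, Ndufb11, Uqcrh and Cox4i1, and part of their reads is uncertain.

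The nuclear and the mitochondrial genes did not follow the same libraries. The 85 nuclear genes had a median log2 fold change of -0.75, with 15 called. Of these 85, 81 were highest in CTL replicate 3 and 79 were lowest in Nelfb-/- replicate 1. The 13 mitochondrial genes had a median of -1.04, with 3 called, and 12 of them were highest in CTL replicate 1 or 2 and 12 lowest in Nelfb-/- replicate 2. Without CTL replicate 3 the nuclear median was -0.58 and the mitochondrial median -1.34. Without Nelfb-/- replicate 1 they were -0.58 and -1.18, and over all 6 such fits they ranged from -0.87 to -0.58 and from -1.34 to -0.89. The nuclear genes of complexes I, II, III and IV had medians of -0.57, -0.62, -0.81 and -0.83 without CTL replicate 3 and of -0.55, -0.68, -0.76 and -0.88 without Nelfb-/- replicate 1.

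**Figure D2:**
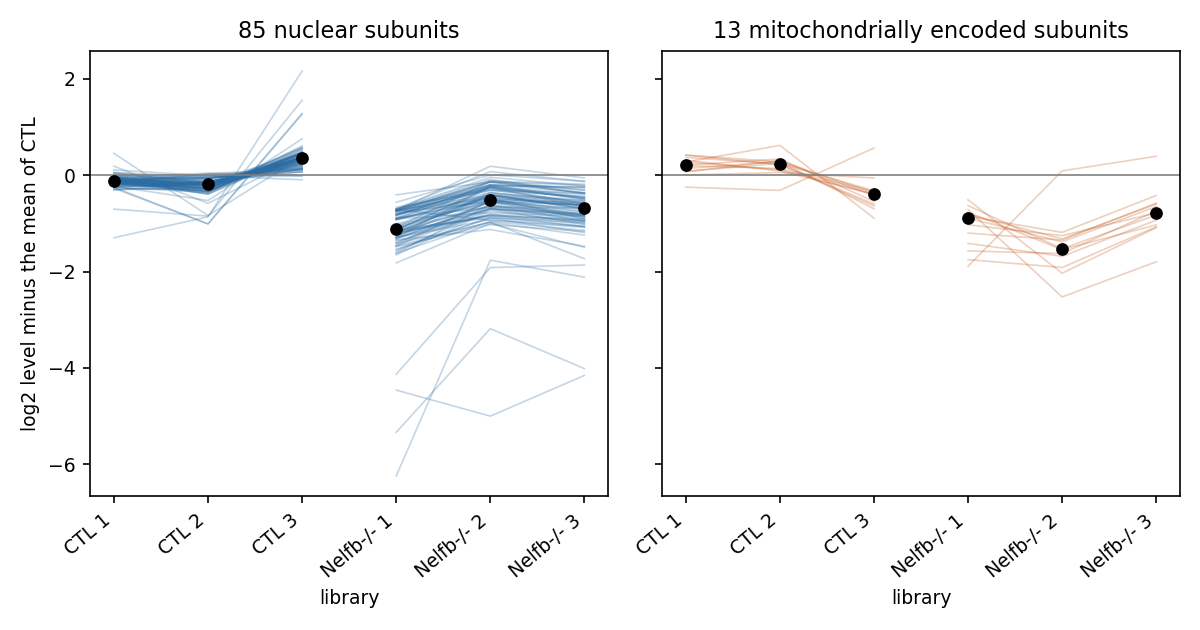
Log2 level of each subunit gene in each library, less the mean of the 3 CTL libraries, for the 85 nuclear genes (left) and the 13 mitochondrial genes (right). Each line is a gene, drawn only to join its own values within a group, and black points are the medians, which were -0.12, -0.19 and 0.35 in CTL and -1.12, -0.51 and -0.69 in Nelfb-/- for nuclear genes, and 0.21, 0.23 and -0.40 in CTL and -0.89, -1.53 and -0.78 in Nelfb-/- for mitochondrial genes.

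Complex I, which oxidises NADH, had 36 nuclear genes with a median of -0.71, of which 6 were called, 15 reached an adjusted p of 0.05 and 30 had groups that did not overlap. Ndufa6, an accessory subunit (ENSMUSG00000022450, chromosome 15 from 82350140 to 82354322, GRCm38), was at 88.9, 93.4 and 90.1 CPM in CTL, against 35.7, 41.5 and 32.6 CPM in Nelfb-/- libraries. The CTL libraries were close together and every Nelfb-/- library was below 42 CPM. Its log2 fold change was -1.32 (SE 0.13, adjusted p = 0.0042 by limma), and between -1.41 and -1.24 with any 1 library left out.

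Ndufs3 carries part of the catalytic arm and was at 53.0, 52.6 and 76.0 CPM in CTL, against 21.2, 29.3 and 26.5 CPM in Nelfb-/- libraries. It fell by 1.23 on the log2 scale (limma adjusted p = 0.014), and was the only core redox subunit to be called. Without Nelfb-/- replicate 3 its adjusted p was 0.066. Ndufv1, which binds NADH, was at 169, 149 and 202 CPM in CTL, against 80.5, 119 and 100.5 CPM in Nelfb-/- libraries, which gave -0.80 (limma adjusted p = 0.039), and Ndufs7 had -0.72 (limma adjusted p = 0.047). Neither kept an adjusted p of 0.05 when any library was left out (limma, 0.057 to 0.13 and 0.057 to 0.16). For Ndufv2 and Ndufs1 the log2 fold changes were -0.71 and -0.61 with groups that did not overlap and adjusted p-values of 0.078 and 0.10. Ndufs8, which holds iron-sulphur clusters, was at 31.3, 25.5 and 62.0 CPM in CTL, against 22.0, 41.8 and 35.3 CPM in Nelfb-/- libraries. These groups overlapped, its log2 fold change of -0.20 was the one nearest to 0 of all 98, and it was 0.18 without CTL replicate 3 and 0.06 without Nelfb-/- replicate 1.

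The other called genes of complex I were the accessory subunits Ndufb9, Ndufa2, Ndufb11 and Ndufa7, which fell by 1.24, 1.09, 1.04 and 1.02 on the log2 scale (limma adjusted p = 0.015, 0.011, 0.031 and 0.0086). Ndufb9 was at 137, 128 and 175 CPM in CTL, against 47.2, 74.7 and 65.7 CPM in Nelfb-/- libraries. Each of the 4 lost its call without Nelfb-/- replicate 3. Ndufb9 also lost it without CTL replicate 1, Ndufa2 and Ndufa7 without CTL replicate 3 or Nelfb-/- replicate 1, and Ndufb11 when any library but Nelfb-/- replicate 2 was left out. Their highest adjusted p-values over these fits were 0.066, 0.063, 0.10 and 0.056 for Ndufb9, Ndufa2, Ndufb11 and Ndufa7. Ndufb4 was at only 8.65 to 10.5 CPM in CTL, while the listed pseudogene Ndufb4c was at 52.5 CPM in CTL replicate 1, so that reads may have been divided between copies.

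Complex II, succinate dehydrogenase, links the citric acid cycle to the chain and has no subunit in mitochondrial DNA. Its 4 genes had a median of -0.73, and none was called by limma, with 3 at an unadjusted p under 0.05. Sdha, the flavoprotein, was at 505, 464 and 438 CPM in CTL, against 249.8, 273 and 259 CPM in Nelfb-/- libraries. This pattern differed from that of most nuclear subunits, since CTL replicate 3 was the lowest of the CTL libraries. Its log2 fold change was -0.85 (limma adjusted p = 0.013). Sdhd, a membrane anchor, had -0.9997 (limma adjusted p = 0.019), just short of 2-fold, while Sdhc and Sdhb had -0.61 and -0.54 with adjusted p-values of 0.075 and 0.19.

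Complex III passes electrons from ubiquinol to cytochrome c, and in all 9 of its nuclear genes every Nelfb-/- library was below every CTL library. The median was -0.94, 3 genes were called and 7 reached an adjusted p of 0.05. Uqcrh, the hinge protein that holds cytochrome c1 (ENSMUSG00000063882, chromosome 4 from 116066965 to 116075071), was at 158, 157 and 178 CPM in CTL, against 61.5, 83.1 and 69.3 CPM in Nelfb-/- libraries. Its log2 fold change was -1.21 (SE 0.15, adjusted p = 0.0070 by limma), with an adjusted p of at most 0.049 whichever library was left out. Uqcrq and Uqcr11, small subunits of the membrane part, fell by 1.16 and 1.13 on the log2 scale (limma adjusted p = 0.018 and 0.045). Uqcrq lost its call without CTL replicate 1, CTL replicate 2, Nelfb-/- replicate 1 or Nelfb-/- replicate 3 (adjusted p up to 0.075 over the 6 fits), and Uqcr11 in every one of these fits (0.055 to 0.12).

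Of the redox and core subunits of complex III encoded in the nucleus, Uqcrfs1 and Uqcrc1 reached an adjusted p of 0.05 with changes of less than 2-fold. Uqcrfs1, the Rieske iron-sulphur protein, was at 223, 231 and 273 CPM in CTL, against 103, 164 and 129 CPM in Nelfb-/- libraries (log2 fold change -0.89, limma adjusted p = 0.032). Cyc1, cytochrome c1, was at 137, 131 and 218 CPM in CTL, against 57.1, 109 and 88.9 CPM in Nelfb-/- libraries (-0.94, adjusted p = 0.083). The core proteins Uqcrc1 and Uqcrc2 had -0.94 and -0.68 (adjusted p = 0.031 and 0.061).

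Complex IV, cytochrome c oxidase, had the nuclear genes with the largest decreases. Its 19 nuclear genes had a median of -0.96 with 6 called and 15 without overlap of the groups. Of these, 6 encode isoforms that are used in particular tissues or states, and without them the median of the other 13 was -0.76 with 3 called. The 3 were Cox6a1, Cox4i1 and Cox7b, forms found in most tissues. Cox4i1, the subunit through which ATP regulates the complex, was at 435, 413 and 516 CPM in CTL, against 175, 258 and 223 CPM in Nelfb-/- libraries. Cox6a1 was at 330.4, 294 and 334 CPM in CTL, against 109.6, 172 and 139 CPM in Nelfb-/- libraries.

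Cox6a1 fell by 1.21, Cox4i1 by 1.07 and Cox7b by 1.02 on the log2 scale (limma adjusted p = 0.012, 0.017 and 0.028). Cox6a1 lost its call without CTL replicate 1 or Nelfb-/- replicate 3, Cox4i1 when any library but Nelfb-/- replicate 2 was left out, and Cox7b in all 6 fits, with adjusted p-values of up to 0.066, 0.080 and 0.0999. At the other end, Ndufa4 was at 65.9, 67.2 and 106 CPM in CTL, against 52.6, 78.2 and 71.2 CPM in Nelfb-/- libraries, and these groups overlapped (log2 fold change -0.23, adjusted p = 0.57). Of its CTL libraries, only replicate 3 was above all Nelfb-/- libraries. Cox5a and Cox5b also overlapped (-0.39 and -0.63). Cox7a2l had -0.91 (limma adjusted p = 0.013).

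Complex V had the median nearest to 0 among the nuclear groups. Its 17 nuclear genes had a median of -0.51 and none was called by limma. Of the 17, 6 had an unadjusted p under 0.05, 1 reached an adjusted p of 0.05 and 9 had groups without overlap. Without CTL replicate 3 the median was -0.33, and without Nelfb-/- replicate 1 it was -0.34. The median stayed the one nearest to 0 of the 5 nuclear groups in each of the 6 fits that left out a library. Whether the complexes differ was not tested, since their genes are not replicates.

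The gene that reached the threshold was Atp5b, the catalytic beta subunit, at 1373, 1275 and 1668 CPM in CTL, against 599, 892 and 800.2 CPM in Nelfb-/- libraries (log2 fold change -0.92, limma adjusted p = 0.047). It did not keep an adjusted p of 0.05 when any library was left out (0.059 to 0.15). Its partner Atp5a1, the alpha subunit, was at 646, 625 and 953 CPM in CTL, against 446, 706 and 621 CPM in Nelfb-/- libraries. These groups overlapped (-0.33, adjusted p = 0.44), and only CTL replicate 3 was above all Nelfb-/- libraries. Atp5c1, the gamma subunit of the rotor, had -0.49 (adjusted p = 0.17). The 3 genes for the c ring, which encode the same mature protein, had a median of -0.25 and overlapped in every case. Atp5g3, the most abundant of them per kb of exon, was at 202, 208 and 321 CPM in CTL, against 147, 251 and 218 CPM in Nelfb-/- libraries, with a 95% interval of the log2 fold change from -0.91 to 0.40. Here too, only CTL replicate 3 was above all Nelfb-/- libraries.

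The 13 mitochondrial genes stood far above the nuclear ones in level. Per kb of exon, 12 of the 13 had a higher CTL mean than any nuclear subunit, and the median of the 13 was 2679 CPM per kb against 50.5 CPM per kb for the 81 nuclear subunits with a length. Together they took 5.24%, 5.86% and 2.86% of all values in the CTL libraries and 2.39%, 1.20% and 1.99% in the Nelfb-/- libraries. All CTL libraries were above all Nelfb-/- libraries, but CTL replicate 3 was close to Nelfb-/- replicate 1. The difference was 2.50-fold (4.65% ± 1.58 against 1.86% ± 0.61, SD, n = 3 each). The nuclear subunits took 1.02%, 0.964% and 1.37% in CTL and 0.513%, 0.769% and 0.670% in Nelfb-/- libraries, a 1.72-fold difference without overlap of the groups.

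The balance of the genomes did not separate the groups. The ratio of mitochondrial to nuclear subunits, in summed CPM, was 5.16, 6.07 and 2.09 in CTL and 4.66, 1.56 and 2.97 in Nelfb-/- libraries. CTL replicate 3 lay within the Nelfb-/- range and Nelfb-/- replicate 1 near CTL replicate 1.

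**Figure D3:**
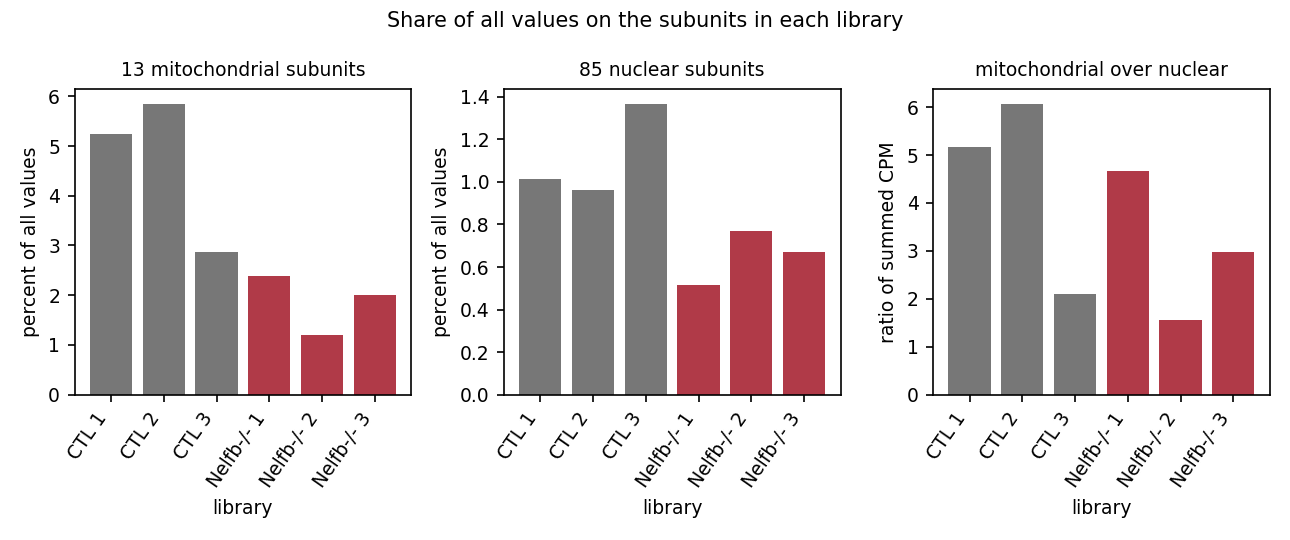
Share of all values, in percent of summed CPM, on the 13 mitochondrial subunit genes (left) and the 85 nuclear ones (middle), and the ratio of both (right), with 1 bar for each of the 3 CTL (grey) and 3 Nelfb-/- (red) libraries. Both shares are higher in every CTL library than in any Nelfb-/- library, whereas the ratio runs from 2.09 to 6.07 in CTL and from 1.56 to 4.66 in Nelfb-/- libraries.

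By complex, the mitochondrial genes of complex I had a median of -1.04, the 3 of complex IV -1.21 and the 2 of complex V -1.06, and mt-Cytb of complex III had -0.97. The 3 called were mt-Nd6, mt-Nd5 and mt-Co3. The gene mt-Nd6 (ENSMUSG00000064368, mitochondrial DNA from 13552 to 14070) is the subunit read from the opposite strand to the other 12. It was at 952, 817 and 583 CPM in CTL, against 228, 203.5 and 366 CPM in Nelfb-/- libraries. Its log2 fold change was -1.58 (SE 0.29, adjusted p = 0.018 by limma). Its end overlaps that of mt-Nd5 on the other strand, and counting by strand is not given in the sources used here, so that reads of the overlap cannot be told apart.

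The gene mt-Nd5 was at 2987, 2873 and 2065 CPM in CTL, against 977, 811 and 1364 CPM in Nelfb-/- libraries (-1.35, limma adjusted p = 0.030). The gene mt-Co3 was at 2107, 2185 and 2017 CPM in CTL, against 1030, 880.3 and 1223 CPM in Nelfb-/- libraries (-1.02, limma adjusted p = 0.031). In both genes, as in mt-Nd6, every Nelfb-/- library was below every CTL library. The calls rested on the libraries used. Without CTL replicate 3, 8 mitochondrial genes reached an adjusted p of 0.05, whereas without CTL replicate 1, CTL replicate 2 or Nelfb-/- replicate 2 none did (limma), with 3 at an unadjusted p under 0.05 in each of these. Over the 6 fits the adjusted p of mt-Nd6 ran from 0.014 to 0.073, that of mt-Nd5 from 0.020 to 0.11 and that of mt-Co3 from 0.028 to 0.12.

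The most abundant transcript was mt-Co1, the catalytic subunit of complex IV. It was at 24361, 30953 and 10860 CPM in CTL, against 12264, 3494 and 5797 CPM in Nelfb-/- libraries. Nelfb-/- replicate 1 was above CTL replicate 3, and the log2 fold change of -1.68 had a 95% interval from -3.38 to 0.02 (limma adjusted p = 0.16). It made up 46.5%, 52.9% and 37.9% of the mitochondrial subunit values in CTL and 51.2%, 29.2% and 29.1% in Nelfb-/- libraries (exact two-sided permutation p = 0.3). The 12 other genes together were 2.14-fold higher in CTL.

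The remaining mitochondrial genes did not reach the threshold. The log2 fold changes of mt-Nd1, mt-Nd2, mt-Nd4 and mt-Nd4l were -1.31, -1.04, -0.91 and -0.82, and their adjusted p-values 0.081, 0.11, 0.12 and 0.078. Those of mt-Co2, mt-Atp8 and mt-Atp6 were -1.21, -1.12 and -0.996, with adjusted p-values of 0.12, 0.083 and 0.086, and mt-Cytb had 0.083. The gene mt-Nd3 stood apart from the other 12. It was at 127, 121 and 223 CPM in CTL, against 40.6, 160.5 and 198 CPM in Nelfb-/- libraries, so that only Nelfb-/- replicate 1 was below the CTL range. Its log2 fold change was -0.47 (adjusted p = 0.63) and it was 0.24 without that library.

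The tissue isoforms of complex IV showed the widest range. Cox7a1, the form of heart, skeletal muscle and brown fat (ENSMUSG00000074218, chromosome 7 from 30184144 to 30186078), was at 12.6, 7.51 and 37.1 CPM in CTL, against 0.332, 1.63 and 0.898 CPM in Nelfb-/- libraries. The lowest CTL library was above every Nelfb-/- library. The log2 fold change was -4.18 (SE 0.75, adjusted p = 0.016 by limma), between -4.69 and -3.54 with 1 library left out, and its adjusted p was 0.056 without CTL replicate 1 and 0.067 without Nelfb-/- replicate 3. Cox7a2, the form of most other tissues, was at 84.3, 81.3 and 115 CPM in CTL, against 43.9, 64.8 and 55.8 CPM in Nelfb-/- libraries (-0.77, adjusted p = 0.052). Per kb of exon, Cox7a1 made up 20.8%, 14.0% and 36.3% of the sum of both in CTL and 1.32%, 4.25% and 2.76% in Nelfb-/- libraries (exact permutation p = 0.1, the smallest that 3 against 3 can give).

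Cox8b, likewise a form of muscle and brown fat (ENSMUSG00000025488, chromosome 7 from 140898945 to 140900446), was at 7.04, 2.85 and 6.70 CPM in CTL. In the Nelfb-/- libraries it was at 0.190, 0.116 and 0.245 CPM, which is 4, 2 and 6 reads. The log2 fold change was -4.54 (SE 0.47, adjusted p = 0.0043 by limma), and the ratio of the summed reads at equal depth, CTL over Nelfb-/-, was 29.7 with an exact 95% interval of 16.8 to 57.9 that covers counting error only. Cox8a, its general counterpart, was at 264, 275 and 316 CPM in CTL, against 115, 185 and 146 CPM in Nelfb-/- libraries (-0.96, limma adjusted p = 0.026). Cox8b made up 4.38%, 1.75% and 3.51% of the pair per kb in CTL and 0.282%, 0.108% and 0.287% in Nelfb-/- libraries (exact permutation p = 0.1).

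Ndufa4l2, an isoform known for its response to low oxygen, was at 46.7, 63.1 and 515 CPM in CTL, against 1.47, 33.8 and 26.4 CPM in Nelfb-/- libraries. The groups did not overlap, but CTL replicate 3 and Nelfb-/- replicate 1 lay far from the others of their groups, and the log2 fold change of -3.38 had an SE of 1.41 (adjusted p = 0.15). It was -2.29 without CTL replicate 3 and -1.94 without Nelfb-/- replicate 1. Cox4i2, the form of lung and of low oxygen, had the same pattern, at 7.08, 6.39 and 34.1 CPM in CTL, against 0.616, 3.03 and 3.14 CPM in Nelfb-/- libraries (-2.64, adjusted p = 0.086), and without these libraries it had -1.86 and -1.89. In contrast, Cox6b2 was even in CTL, at 3.34, 3.22 and 3.54 CPM, against 1.19, 1.69 and 0.979 CPM in Nelfb-/- libraries, which is 25, 29 and 24 reads (-1.39, limma adjusted p = 0.026). It lost its call without CTL replicate 1, CTL replicate 2 or Nelfb-/- replicate 3 (adjusted p up to 0.11).

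Cox6a2, a muscle form, was at 2.48, 1.45 and 7.17 CPM in CTL, against 0.806, 1.46 and 1.02 CPM in Nelfb-/- libraries, and these overlapped (-1.44, adjusted p = 0.16, and -0.81 without CTL replicate 3). Its share of the Cox6a1 and Cox6a2 sum per kb did not separate the groups (exact permutation p = 0.8), and the difference in share turned from -0.36 to 0.15 percentage points without CTL replicate 3. The shares of Ndufa4l2, Cox4i2 and Cox6b2 in their pairs were lower in every Nelfb-/- library than in any CTL library (exact permutation p = 0.1 each), and the difference in the Cox4i2 share went from -3.97 to -1.15 percentage points without CTL replicate 3.

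**Figure D4:**
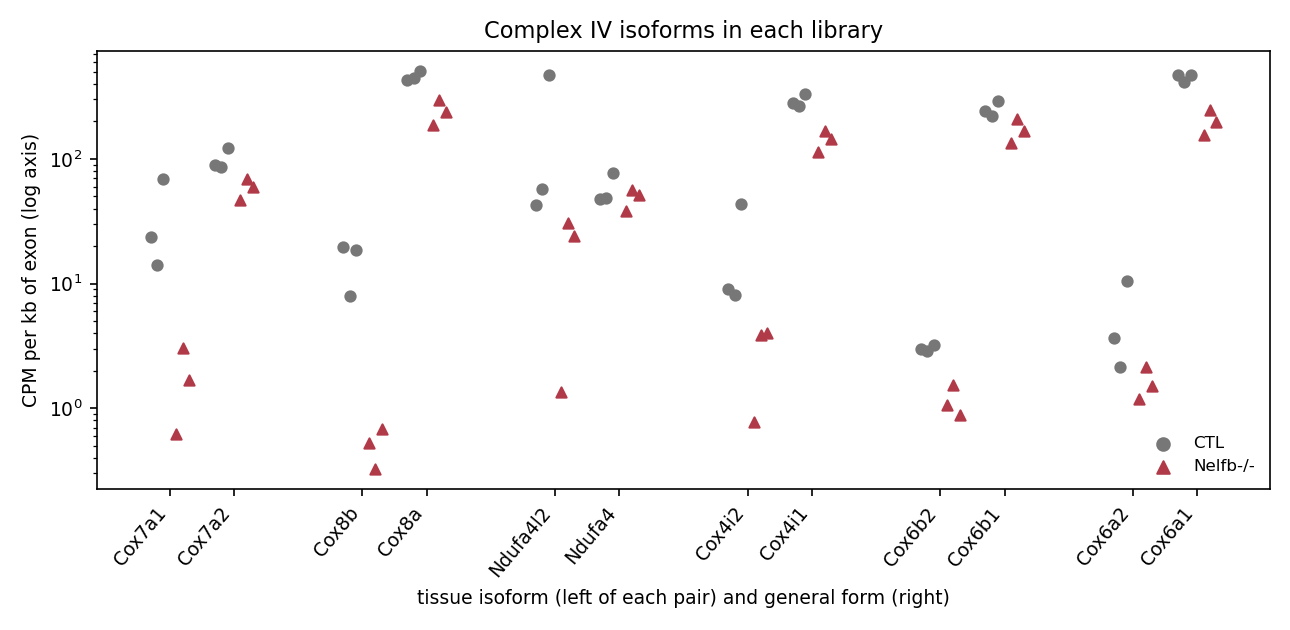
Level of 6 tissue isoforms of complex IV, each beside its general form, in CPM per kb of exon on a log axis, with 1 point per library (grey circles CTL, red triangles Nelfb-/-). Cox7a1 and Cox8b lie in CTL at 14.0 to 69.3 and 7.91 to 19.5 CPM per kb and in Nelfb-/- libraries at 0.620 to 3.05 and 0.323 to 0.680, while their general forms Cox7a2 and Cox8a differ far less.

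The promoters of the nuclear subunits are known for binding sites of NRF1, of ETS factors such as GABP and of YY1. RefSeq sequences (GRCm38.p6) of 250 bases before to 50 after the start were at hand for 68 of the 85 nuclear genes, and 8 words were searched on both strands. The NRF1 word, GCGCA and GCGC with 1 base between, was in 17 of the 68 (25.0%, against 4.60% of all 32851 promoters and 10.8% of the tested genes with a promoter), and the ETS word CCGGAAG was also in 17 (25.0%, against 8.86% and 18.9%). The YY1 word AANATGGCG was in 10 (14.7%, against 2.38% and 5.48%). Of the others, the Sp1 word GGGCGG was in 27 (39.7%, against 35.7% and 66.9%), CCAAT in 29, TATAAA in 7, the ERR word TCAAGGTCA in 2 and the DR1 word, AGGTCA repeated with 1 base between, in 0. The 38 genes with an NRF1, ETS or YY1 word had a median log2 fold change of -0.65 and the 30 without had -0.78. A match of letters is a description and not a bound site.

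The 250 bases before the start are shown for 4 called genes, 5′ to 3′ on the strand of the gene, as examples with and without these words, namely the isoforms with the largest decreases and 2 general subunits. Capitals mark NRF1 and ETS words. Cox8b lies at chr7:140900447-140900696 (minus strand) and Cox7a1 at chr7:30183921-30184170 (plus strand), and neither holds a capital. Cox6a1 at chr5:115348959-115349208 (minus strand) holds 2 NRF1 words and 1 ETS word, and Uqcrh at chr4:116075071-116075320 (minus strand) holds 1 ETS word. Cox6b2, the other called isoform, also had none of the NRF1, ETS and YY1 words. In all, 30 of the 68 had none, the general subunits Cox7a2 and Cox7b among them.
Cox8b: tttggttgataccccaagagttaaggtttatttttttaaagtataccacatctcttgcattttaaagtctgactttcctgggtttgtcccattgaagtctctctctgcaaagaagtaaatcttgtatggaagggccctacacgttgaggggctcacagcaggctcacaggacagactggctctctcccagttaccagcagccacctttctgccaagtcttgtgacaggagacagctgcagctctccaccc
Cox7a1: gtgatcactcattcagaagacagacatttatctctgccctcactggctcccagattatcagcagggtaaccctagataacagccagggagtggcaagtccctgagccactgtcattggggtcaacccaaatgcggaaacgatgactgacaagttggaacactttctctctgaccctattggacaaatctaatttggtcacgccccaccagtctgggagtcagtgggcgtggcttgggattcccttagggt
Cox6a1: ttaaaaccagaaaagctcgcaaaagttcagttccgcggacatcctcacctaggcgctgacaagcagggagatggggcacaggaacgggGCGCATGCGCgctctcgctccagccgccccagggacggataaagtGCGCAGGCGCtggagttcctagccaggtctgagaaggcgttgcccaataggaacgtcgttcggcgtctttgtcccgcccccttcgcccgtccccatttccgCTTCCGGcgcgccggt
Uqcrh: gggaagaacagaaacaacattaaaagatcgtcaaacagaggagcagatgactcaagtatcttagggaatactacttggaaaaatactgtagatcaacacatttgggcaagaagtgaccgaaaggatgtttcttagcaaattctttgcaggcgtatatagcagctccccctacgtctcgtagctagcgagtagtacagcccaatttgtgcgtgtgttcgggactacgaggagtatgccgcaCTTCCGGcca

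Other genes of the pathway were described from lists chosen by function. Of 55 tested assembly factors, 4 were called lower and 0 higher (limma, 13 lower and 2 higher at an unadjusted p under 0.05). The calls were 7.27% of the list, against 3.64% of all genes tested, and with 1 library left out 1 to 3 were called, with 1 without CTL replicate 1, Nelfb-/- replicate 2 or Nelfb-/- replicate 3 and 2 without CTL replicate 2. Of the 55, 45 had a negative log2 fold change (39 without CTL replicate 3 and 41 without Nelfb-/- replicate 1). The median was -0.19, and it ran from -0.28 without Nelfb-/- replicate 2 to -0.13 without CTL replicate 3. The 4 were Fmc1, an assembly factor of complex V (-1.71), Uqcc3 and Uqcc2 of complex III (-1.49 and -1.22) and Coa7 of complex IV (-1.09), with limma adjusted p-values of 0.025, 0.0052, 0.037 and 0.018. Uqcc3 was at 23.1, 22.3 and 19.1 CPM in CTL, against 8.35, 7.16 and 7.30 CPM in Nelfb-/- libraries. Foxred1 and Cox17, which act on complexes I and IV, fell by less than 2-fold (-0.72 and -0.71 on the log2 scale, limma adjusted p = 0.018 and 0.024).

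Of 21 tested subunits and carriers whose names the rule does not take, 2 were called lower (9.52%, against 3.64% of all genes tested) and the median was -0.45. There were 4 calls without CTL replicate 3 or Nelfb-/- replicate 2 and 0 without Nelfb-/- replicate 3 (limma, 8 lower at an unadjusted p under 0.05), and 12 of the 21 were negative. The median ran from -0.75 without Nelfb-/- replicate 2, where 17 were negative, to -0.31 without Nelfb-/- replicate 1. Etfb, one subunit of the flavoprotein that brings electrons from fatty acid oxidation, was at 232, 212 and 222 CPM in CTL, against 55.7, 104 and 80.4 CPM in Nelfb-/- libraries (-1.52, limma adjusted p = 0.011). Coq9, needed to make ubiquinone, fell by 1.09 on the log2 scale (limma adjusted p = 0.010). Etfa, Etfdh and the complex I subunit Ndufab1 fell by less than 2-fold (-0.94, -0.93 and -0.82, limma adjusted p = 0.0096, 0.024 and 0.020). Cycs, cytochrome c itself, was at 98.3, 86.0 and 170.0 CPM in CTL, against 44.5, 130 and 101 CPM in Nelfb-/- libraries, and these overlapped (-0.43, adjusted p = 0.54). Only Nelfb-/- replicate 1 was below the CTL range of Cycs.

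Of 33 tested genes for the transcription, replication and RNA stability of mitochondrial DNA, 1 was called lower and the median was -0.22. This is 3.03% of the list, against 3.64% of all genes tested, and there were 2 calls without CTL replicate 3 and none without CTL replicate 2 or Nelfb-/- replicate 3 (limma, 8 and 6 lower at an unadjusted p under 0.05). Of the 33, 27 were negative, and 9 were lower and 1 higher at an unadjusted p under 0.05. The called gene was Hsd17b10, a subunit of the RNase P that cuts mitochondrial transcripts, at 171, 149.8 and 77.9 CPM in CTL, against 29.5, 41.7 and 32.1 CPM in Nelfb-/- libraries (-1.88, limma adjusted p = 0.014). The paper names it among its decreased adipogenic genes, in a list that also holds Bckdha and Bcat2. Mgme1 and Grsf1, which act in the turnover of mitochondrial DNA and RNA, had -0.90 and -0.72 (limma adjusted p = 0.032 and 0.015). Tfam, which packages mitochondrial DNA and starts its transcription, and Polrmt, its polymerase, had -0.42 and -0.30 with groups that did not overlap but adjusted p-values of 0.072 and 0.16, and Lrpprc had -0.03.

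Of 16 tested regulators of nuclear subunit genes, 1 was called lower and 0 higher (limma, 5 lower and 1 higher at an unadjusted p under 0.05). With 16 genes, 1 call is close to the background of 3.64% lower, and it was made in 1 of the 6 fits that left out a library, the one without Nelfb-/- replicate 2. Ppargc1b, a coactivator of mitochondrial genes, was at 20.2, 19.2 and 23.6 CPM in CTL, against 9.01, 11.6 and 9.63 CPM in Nelfb-/- libraries (-1.06, limma adjusted p = 0.013). Ppargc1a overlapped between groups (-0.99, adjusted p = 0.29). Nrf1 and Gabpa had -0.10 and 0.26 (adjusted p = 0.64 and 0.35), Esrra had -0.48 (0.095), and Hif1a rose by less than 2-fold (0.61, limma adjusted p = 0.041).

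Of 16 genes used as markers of mitochondrial content, all 16 had a negative log2 fold change, 2 were called (12.5%, against 3.64% of all genes tested) and the median was -0.46. Without CTL replicate 3 or Nelfb-/- replicate 1, 14 were negative, and with 1 library left out 0 to 2 were called, with 0 without Nelfb-/- replicate 3 (limma, 6 lower at an unadjusted p under 0.05). Among those called was Cs, the citrate synthase of the citric acid cycle, which fell by 1.11 on the log2 scale (limma adjusted p = 0.012). Cs was at 697, 656 and 668 CPM in CTL, against 258, 357 and 332 CPM in Nelfb-/- libraries. The outer membrane channels Vdac1, Vdac2 and Vdac3 had -0.44, -0.23 and -0.09 and did not reach the threshold (adjusted p = 0.18, 0.32 and 0.81).

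Markers of several cell types differed between the groups, while the summed levels of adipocyte, fibroblast or preadipocyte and endothelial markers overlapped. The summed level of 10 adipocyte markers was 23948 to 41067 CPM in CTL and 16126 to 24307 CPM in Nelfb-/- libraries, and 8 of the 10 had a negative log2 fold change, with 1 called lower and 1, Lep, called higher. With 10 genes, 1 call each way is close to the background of 3.64% lower and 7.58% higher. For the 10 brown or beige markers analysed the summed level was 363 to 1066 against 94.6 to 226 CPM, with 9 of 10 negative and 3 called lower (30%, against 3.64% of all genes tested). Pdk4 was the largest part of this sum in every library, at 700, 762 and 131 CPM in CTL, against 192, 41.0 and 45.7 CPM in Nelfb-/- libraries. Without CTL replicate 3, 4 of the adipocyte and 4 of the brown or beige markers were called lower, and without Nelfb-/- replicate 1 it was 1 and 5. In each of the other 4 fits that left out a library, 3 brown or beige and 0 adipocyte markers were called lower (limma, 1 to 3 adipocyte markers lower at an unadjusted p under 0.05), and the call of Lep was lost without CTL replicate 2, Nelfb-/- replicate 2 or Nelfb-/- replicate 3. Cidea, a defining marker of brown fat, was at 11.0, 7.23 and 10.03 CPM in CTL, against 0, 0.058 and 0.041 CPM in Nelfb-/- libraries, and Ucp1 was not analysed here.

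Fibroblast or preadipocyte markers summed to 3133 to 12390 CPM in CTL and 6936 to 26429 CPM in Nelfb-/- libraries, with 9 of 10 positive and 1 called higher (10%, against 7.58% of all genes tested). There were 6 calls without CTL replicate 3, 2 without Nelfb-/- replicate 1 and 0 in each of the other 4 such fits (limma, 2 higher at an unadjusted p under 0.05). Macrophage markers were higher in Nelfb-/- libraries, with 8 of 9 called (233 to 822 against 2291 to 7260 CPM), or 2 without CTL replicate 2 or Nelfb-/- replicate 3. All 9 tested skeletal muscle markers were called higher (11.8 to 13.1 against 64.9 to 120.5 CPM), or 4 without Nelfb-/- replicate 3, whereas the muscle isoforms Cox7a1 and Cox8b were called lower. All 5 melanocyte markers were called higher (1.22 to 1.43 against 30.3 to 72.1 CPM), or 3 of 4 tested without Nelfb-/- replicate 2 or Nelfb-/- replicate 3, and Tyr was at 0 in every CTL library. Schwann cell markers summed to 46.9 to 58.1 against 90.3 to 115 CPM, with 2 of 4 called higher and 1, Mbp, called lower, a call that was lost without CTL replicate 1, CTL replicate 2, Nelfb-/- replicate 2 or Nelfb-/- replicate 3. Endothelial markers summed to 6.70 to 10.4 against 7.63 to 21.3 CPM and keratinocyte markers to 1.89 to 2.45 against 3.46 to 12.8 CPM, and the 1 cardiac marker analysed, Tnnt2, was at 0.541 to 1.80 against 3.20 to 5.55 CPM. The part of these cell types in the lower levels of the subunit genes was not tested.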

How the data were processed

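RNA was sequenced from 3 CTL and 3 Nelfb-/- cultures. The authors deposited a table of values in CPM, with an offset of 0.0001 added to each value. Per the submitters' processing notes, STAR 2.7, Partek 9.0.20.0202 and mm10 were used, while the methods name DESeq2 for the alignment. The counter, the annotation and counting by strand are not given in the sources used here. For the libraries the paper names an Illumina RNA kit by its catalogue number and does not state poly(A) selection in words. The lowest steps of each column gave the depth, but of values worth up to 20 reads only 69.3% to 72.0% were whole (within 0.02), so that no count test was run. CPM less the offset was multiplied by the geometric mean depth (22.3 M reads), 1 was added and log2 was taken. Genes that averaged 10 reads or more (0.448 CPM) were tested with limma 3.58.1 (R 4.3.3, variance trend), with Benjamini-Hochberg adjustment. The script was tested on simulated data. A count of 3 reads was worth 0.102 to 0.175 CPM. The shares of mt-Co1 and of single isoforms were compared by exact two-sided permutation tests (SciPy).

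Gene IDs and exon lengths came from GENCODE vM21, matched by name for 17520 of 17924 genes (94 of the 98 subunits), of which 99.0% had the same position. Named genes were the called subunits, all mitochondrial ones, isoform pairs, core subunits, extremes of each complex and, from the other lists, up to 6 genes at an adjusted p of 0.05 with set regulators. Vdac1 to Vdac3, Cox5a, Cox5b, Ndufb4, Ndufb4c and the cell type markers Lep, Cidea, Pdk4, Dio2, Mbp, Tyr and Tnnt2 were named after their values were seen. Single values of 2 genes that this rule takes are not reported here. The subunits and lists were chosen with earlier results of these data known, so no p is given for the subunits or lists as a group. Of the 98, 50 overlap another annotated gene, and for the 45 nuclear subunits that do not the median log2 fold change was -0.77. Reads shared with pseudogenes could not be resolved. The alternatives were other pseudocounts, filters and scalings, no moderation of variances, a replicate block and leaving out each library.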

Additional observations from a re-analysis of the deposited data

How the results depend on the processing

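The alternatives kept the direction of nearly all subunit values: all 98 subunit genes were negative in each of the 8 alternatives that used all libraries, and 3 of the single values of subunit genes in any alternative turned sign, namely Ndufs8 without CTL replicate 3 (0.18) or Nelfb-/- replicate 1 (0.06) and mt-Nd3 without Nelfb-/- replicate 1 (0.24). With 1 library left out they ranged from -0.47 to 0.18 and from -0.90 to 0.24. Without moderation of variances, 6 subunits were called (5 nuclear), 10 reached an adjusted p of 0.05 (1 mitochondrial), and 684 of all genes were called in place of 1824. Scaling by the median of ratios gave 24 calls, and to the total without mitochondrial genes 23. With any 1 library left out, called subunits ranged from 4 to 17, those at an adjusted p of 0.05 from 4 to 33, nuclear calls from 3 to 17, mitochondrial ones at that p from 0 to 8, and all called genes from 426 to 2479. The difference in the Cox6a2 share ranged from -0.68 to 0.15 percentage points. In CPM without a length correction the differences in share were -1.77 for Cox8b, -0.80 for Cox6b2, -2.14 for Cox4i2 and -13.7 for Cox7a1 in place of -2.99, -0.52, -3.97 and -20.9. The causes were not tested.

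A replicate block gave 20 called subunits, 34 at an adjusted p of 0.05 and 1 mitochondrial subunit in place of 3. Whether the numbers pair the libraries cannot be told from 3 libraries per group, whose deviations from a group mean depend on each other. The correlations of the deviations were 0.52, -0.39 and 0.52 for same-numbered libraries, and CTL replicate 2 correlated best with Nelfb-/- replicate 1 (0.48). With 3 libraries per group, exact tests could not go below 0.1, and Cox8b at 2 to 6 reads in Nelfb-/- libraries lies near the floor of 3 reads.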
